A study of Mus musculus with 5 samples.

Results

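The trithorax and Mll complex genes examined here are 10 genes of the Kmt2 family and of proteins that work with it on chromatin: Kmt2a, Kmt2c, Kmt2e, Men1, Ash2l, Wdr5, Rbbp5, Psip1, Dot1l and Mllt3. Every probe set that the array's annotation gives to exactly 1 of these genes was taken, which made 28 of the 45101 probe sets on the array, from 1 for Rbbp5 to 6 for Kmt2e. Their transcripts were measured in hematopoietic stem cells (HSCs) on 5 Affymetrix MOE430.2 arrays, 3 with RNA of wild type (WT) mice and 2 with RNA of Atxn1L-null mice, which carry a knock-out allele of Atxn1L, a paralog of the spinocerebellar ataxia gene Ataxin-1. All mice were on the C57Bl/6 background, and no group received a treatment. Their age is given as 6 to 8 weeks in the sample records and as 8 weeks in the study's text. The cells of every array were sorted from bone marrow as lineage-negative, c-Kit+, Sca-1+, CD150+ cells of the side population, which exclude Hoechst dye, and were pooled for each array, with the number of mice in a pool not given in the sources used here. Each sample is 1 such pool, and p-values measure the spread between these pools.

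Kmt2a (Mll1) is the founding mammalian member of the trithorax group, the chromatin proteins that keep developmental genes switched on. It methylates histone H3 at lysine residue H3K4 near promoters, and it is known in blood for maintaining the Hoxa genes of stem cells and for the chromosome translocations that turn it into a leukemia gene. Its activity depends on a core of Wdr5, Rbbp5 and Ash2l, its tethering to chromatin on menin (the product of Men1) and Psip1, and its leukemic fusion partners on Dot1l, which methylates H3K79.

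The deposited values are on the log2 scale of GCRMA, so that a difference of 1 is a 2-fold change, and values near the lower end of this scale carry little signal. Medians of the arrays ran from 3.03 to 3.07. A probe set with a mean of at least 5 over the 5 arrays is called bright here, and 15 of the 28 were bright, in 8 of the 10 genes, while all probe sets of Men1 and Dot1l stayed below. Atxn1l was called lower in null HSCs on its probe set 1455507_s_at, which averaged 6.19 in WT and 3.44 in null arrays (limma adjusted p = 0.344), and since the null values lie close to the array medians no fold is given. Of the markers of the sorted cells, Procr, an endothelial protein C receptor carried by HSCs, read 13.23 to 13.64, but Slamf1, which encodes the CD150 used in the sort, averaged only 2.35, 2.81 and 3.92 in WT and 2.34, 2.56 and 3.89 in null arrays on its 3 probe sets. Probe sets of erythroid genes were bright in 0 of 8 cases, of T and NK cell genes in 1 of 12 of B cell genes in 2 of 14, of stroma genes in 2 of 17 and of megakaryocyte genes in 3 of 7, while 9 of 12 of granulocyte and monocyte genes were bright in the same arrays, among them S100a8 at 13.03 to 13.95. The mean of those 12 probe sets was 8.35, 8.52 and 9.0007 in WT and 8.99 and 8.55 in null arrays, so the genotypes overlapped. No marker probe set of any of these lists was called, and the part of such cells in the values below was not tested.

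Psip1 was the only one of the 10 genes to be called different between the genotypes, and it was higher in Atxn1L null HSCs on all 3 of its probe sets. No member probe set was called lower. A probe set was called at a limma p of at most 0.05 together with a fold of at least 1.5, or 0.585 on the log2 scale. Of the 28 probe sets 2 were called (7.14%), both higher, where the arrays as a whole gave 1074 of 45037 (2.38%), with 1.13% higher and 1.25% lower, and of the 15 bright ones 1 was called (6.67%), where all bright probe sets gave 7.21%. Counted by gene, 1 of 10 was called against 815 of 18193 genes (4.48%). Among genes with a bright probe set, 1 of 8 was called on such a probe set, against 688 of 7070. The share of called members lay near the general one for bright probe sets only, and 1 gene sets all of these member shares. None of the 28 had an adjusted p under 0.05 by limma with Benjamini-Hochberg adjustment over all probe sets, where 1 of all probe sets did (0.00222%), and 3 had an unadjusted p of at most 0.05 (over all probe sets 5.59% did). In such pools a change in the share of a kind of cell and a change of RNA within each cell cannot be told apart.

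**Figure D1:**
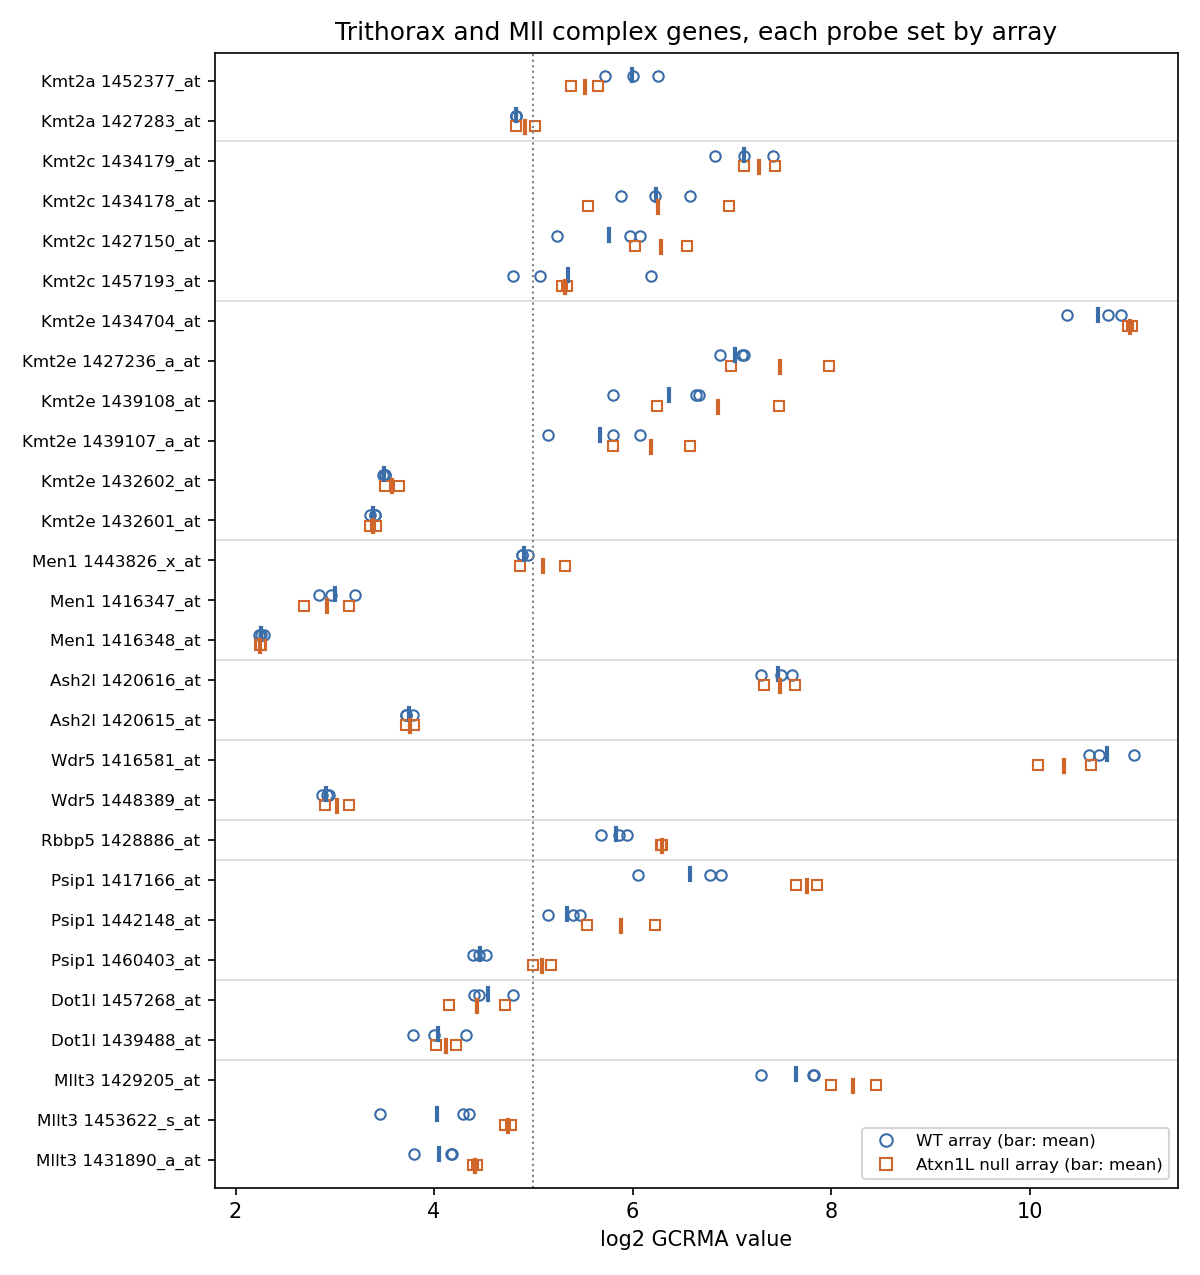
Log2 GCRMA value (horizontal axis) of each of the 28 probe sets (vertical axis), with a circle for each WT array, a square for each Atxn1L null array, a bar at the mean of each genotype and a dotted line at 5. The null squares of all 3 Psip1 probe sets, all 3 Mllt3 probe sets, Rbbp5 and Kmt2e 1434704_at lie to the right of every WT circle. Those of Kmt2a 1452377_at lie to the left.

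Psip1 encodes LEDGF, a chromatin reader whose PWWP domain binds methylated H3K36 and which holds the menin and Kmt2a complex on its genes. Its brightest probe set, 1417166_at, read 6.78, 6.90 and 6.06 in the WT arrays and 7.86 and 7.65 in the null arrays. Both null arrays stood above all WT arrays. The level rose from 6.58 ± 0.45 (SD, n = 3) to 7.76 ± 0.15 (SD, n = 2), a log2 difference of 1.18 or 2.26-fold (standard error 0.31, 95% interval 0.30 to 2.06, limma adjusted p = 0.693). The dimmest, 1460403_at, read 4.53, 4.39 and 4.46 in WT and 4.99 and 5.18 in null HSCs. This rise of 0.63 (standard error 0.08, 95% interval 0.41 to 0.85, limma adjusted p = 0.346) ranked 207 by p among all probe sets tested.

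The remaining Psip1 probe set, 1442148_at, was not called, although its null values of 6.23 and 5.54 also lay above the WT values of 5.15, 5.47 and 5.40. Its difference was 0.54 with an interval of -0.18 to 1.27, and the distance between the null arrays was larger than the gap to WT. With the 3 probe sets averaged, Psip1 differed by 0.78 and was called. The call of 1417166_at ended without the first WT array or either null array, where its difference was 1.28, 1.07 and 1.29, and that of 1460403_at ended without the second null array, at 0.53. With each of the 5 arrays left out in turn, at least 1 probe set of Psip1 was still called in 5 of 5 cases, not always the same one. The 5′ probe set of the Gapdh control, a sign of RNA or amplification quality, was lower in the same null pools, with WT arrays from 6.02 to 6.11 and null arrays at 4.63 and 4.78, while its 3′ probe set read 11.99 and 11.98 on average. For beta-actin the difference was -0.65 at the 5′ and 0.14 at the 3′ probe set. The part of this in the Psip1 difference was not tested.

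**Figure D2:**
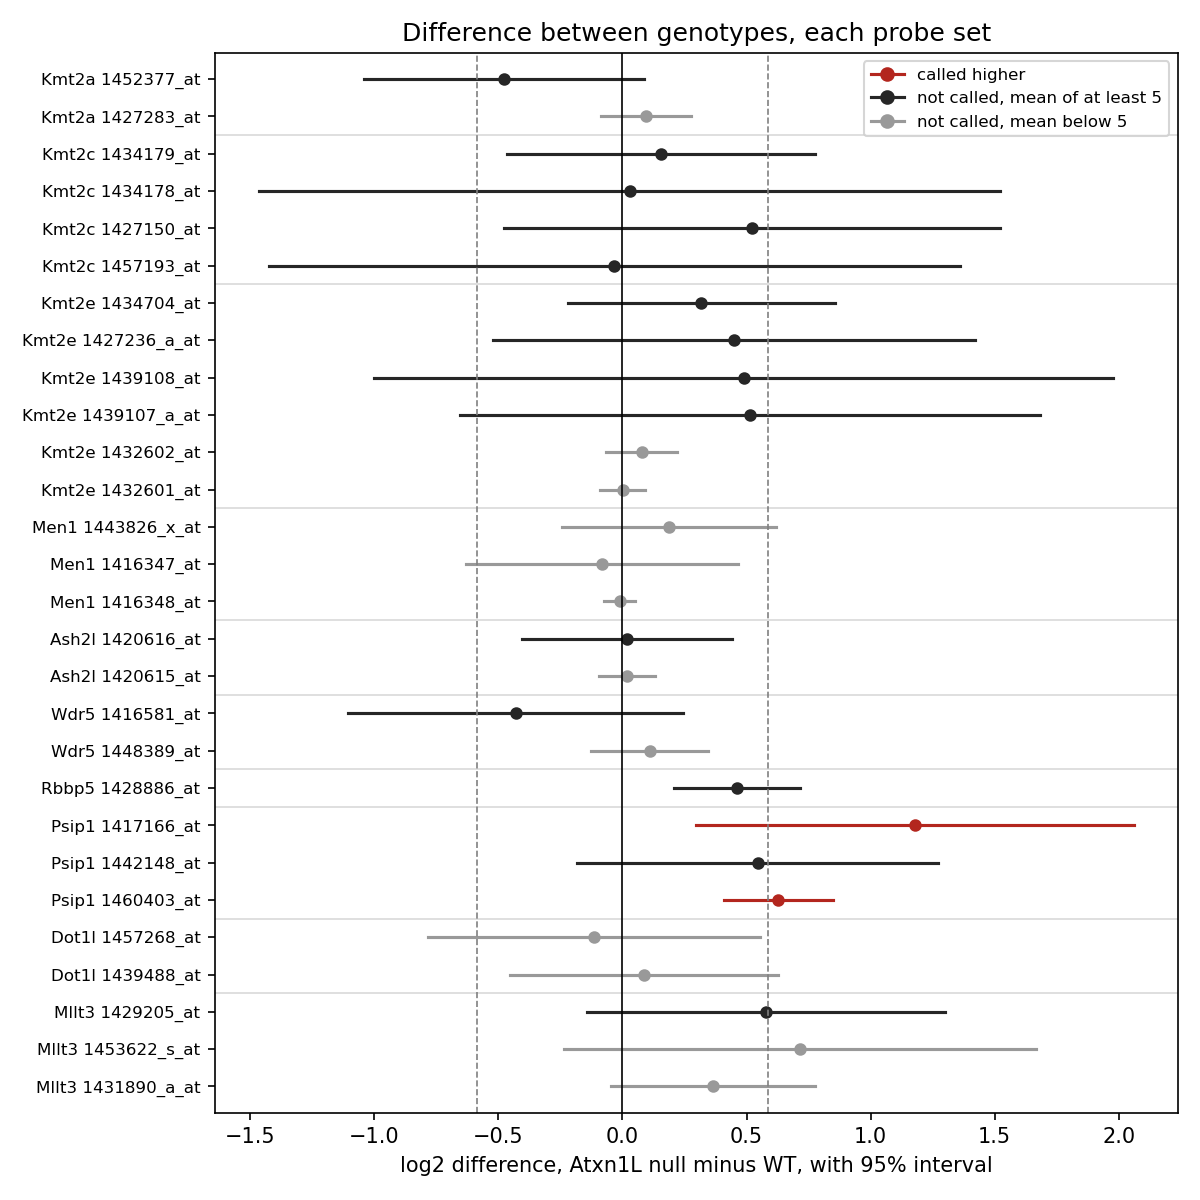
Log2 difference, Atxn1L null minus WT (horizontal axis), of each probe set (vertical axis), with the 95% interval from limma as a line and dashed lines at a fold of 1.5 in either direction. The 2 called probe sets, both of Psip1, have intervals above 0, as does Rbbp5, which does not reach the fold with its 0.46.

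Mllt3 and Dot1l belong to the elongation side of the group. Mllt3 (AF9), a YEATS domain protein that reads acylated histones, recruits Dot1l and the super elongation complex and is known as a factor that sustains human HSCs. Its bright probe set, 1429205_at, read 7.83, 7.29 and 7.81 in WT and 7.99 and 8.45 in null HSCs. All 3 probe sets of Mllt3 had both null arrays above every WT array, and none was called. Their differences were 0.58 (95% interval -0.14 to 1.30), 0.72 (-0.24 to 1.67) and 0.36 (-0.05 to 0.77). The first lay just under the required fold, at 1.49, and its unadjusted p was above 0.05 as well. With the 3 probe sets averaged Mllt3 differed by 0.55 (limma unadjusted p = 0.00167), which met the p but was still under the fold. With array weights the bright probe set was called, at 0.81; the second WT array, the lowest for this probe set, then had a weight of 3.47 and the others 0.276 to 1.14.

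Dot1l, the H3K79 methyltransferase, was dim on both of its probe sets, at 4.40 to 4.80 in WT and 4.16 to 4.71 in null HSCs on 1457268_at and at 3.79 to 4.32 and 4.02 to 4.22 on 1439488_at. The genotypes overlapped on both, with differences of -0.11 and 0.09.

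Rbbp5, Wdr5 and Ash2l form the core on which the activity of Kmt2a depends, and none of their probe sets was called. Rbbp5, a beta-propeller subunit, has a single probe set, which read 5.86, 5.95 and 5.68 in WT and 6.30 and 6.29 in null HSCs. The null arrays differed by less than the WT arrays and lay above all of them. The difference of 0.46, or 1.38-fold (standard error 0.09, 95% interval 0.21 to 0.72, limma adjusted p = 0.519), had an unadjusted p under 0.05 but did not reach the fold, and with 1 array left out in turn it ran from 0.39 to 0.52. Wdr5, the WD40 protein that binds the Win motif of Mll enzymes, was not called either. Its bright probe set, 1416581_at, read 11.05, 10.60 and 10.70 in WT and 10.09 and 10.62 in null HSCs, a difference of -0.43 (95% interval -1.11 to 0.24), and the second null array lay within the WT range.

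Ash2l, the SPRY domain subunit, was not called. Its bright probe set, 1420616_at, read 7.61, 7.29 and 7.50 in WT and 7.33 and 7.64 in null HSCs, a difference of 0.02. The 95% interval of -0.41 to 0.44 lies inside a 1.5-fold change in either direction, and it is the only one of the 15 bright member probe sets for which this holds, where 30.2% of all bright probe sets do so. For the other 14 the arrays leave a 1.5-fold difference within the interval, so a missing call there does not show equal expression. The other probe sets of Wdr5 and Ash2l were dim, at 2.87 to 3.14 and 3.72 to 3.80 over all arrays.

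Of the Kmt2 genes themselves, none was called, and Kmt2a was the only one with a probe set on which both null arrays lay below every WT array. This probe set, 1452377_at, read 6.26, 6.00 and 5.73 in WT and 5.65 and 5.38 in null HSCs. Both null arrays lay below all WT arrays, by as little as 0.08, and the WT arrays themselves spanned 0.53. The difference of -0.48 (standard error 0.20, 95% interval -1.04 to 0.09) passed the criterion without the third WT array, at -0.61. The other Kmt2a probe set, 1427283_at, had the same value, 4.82, in all WT arrays and in the second null array, and 5.01 in the first. It was designed on the same source sequence as the bright one.

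Kmt2c (Mll3), which places H3K4 monomethylation at enhancers and acts as a tumor suppressor in myeloid cells, was bright on all 4 probe sets with no called difference. The differences were 0.15, 0.03, 0.52 and -0.03, and the genotypes overlapped on each. On 1434178_at the 2 null arrays read 6.97 and 5.55, on either side of the WT range of 5.89 to 6.58, and on 1457193_at the first WT array, at 6.18, lay above both null arrays while the others read 4.79 and 5.06. The standard errors of 0.22 to 0.53 compare with a median of 0.18 over all bright probe sets.

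Kmt2e (Mll5), a SET domain protein known for its requirement in HSC fitness, had positive differences on all 4 bright probe sets, of 0.32, 0.45, 0.49 and 0.51, and none was called. The brightest, 1434704_at, read 10.79, 10.37 and 10.92 in WT and 11.03 and 10.99 in null HSCs, so that the null arrays were above every WT array. On the other three the first null array alone stood out. It read 7.98 on 1427236_a_at against 6.88 to 7.12 in WT, 7.47 on 1439108_at against 5.80 to 6.67 and 6.58 on 1439107_a_at against 5.14 to 6.08, while the second null array, at 6.99, 6.24 and 5.80, lay within the WT range each time. Without the second null array 1427236_a_at was called, at 0.94, and without the first its difference was -0.05. The remaining Kmt2e probe sets were dim, at 3.35 to 3.65.

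Men1, whose product menin joins Kmt2a to Psip1, gave little signal. Its brightest probe set, 1443826_x_at, read 4.89, 4.95 and 4.89 in WT and 4.87 and 5.32 in null HSCs, with a difference of 0.19 (95% interval -0.24 to 0.62). The others, which share a source sequence, read 2.69 to 3.20 and 2.23 to 2.29 and differed by -0.08 and -0.01.

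**Figure D3:**
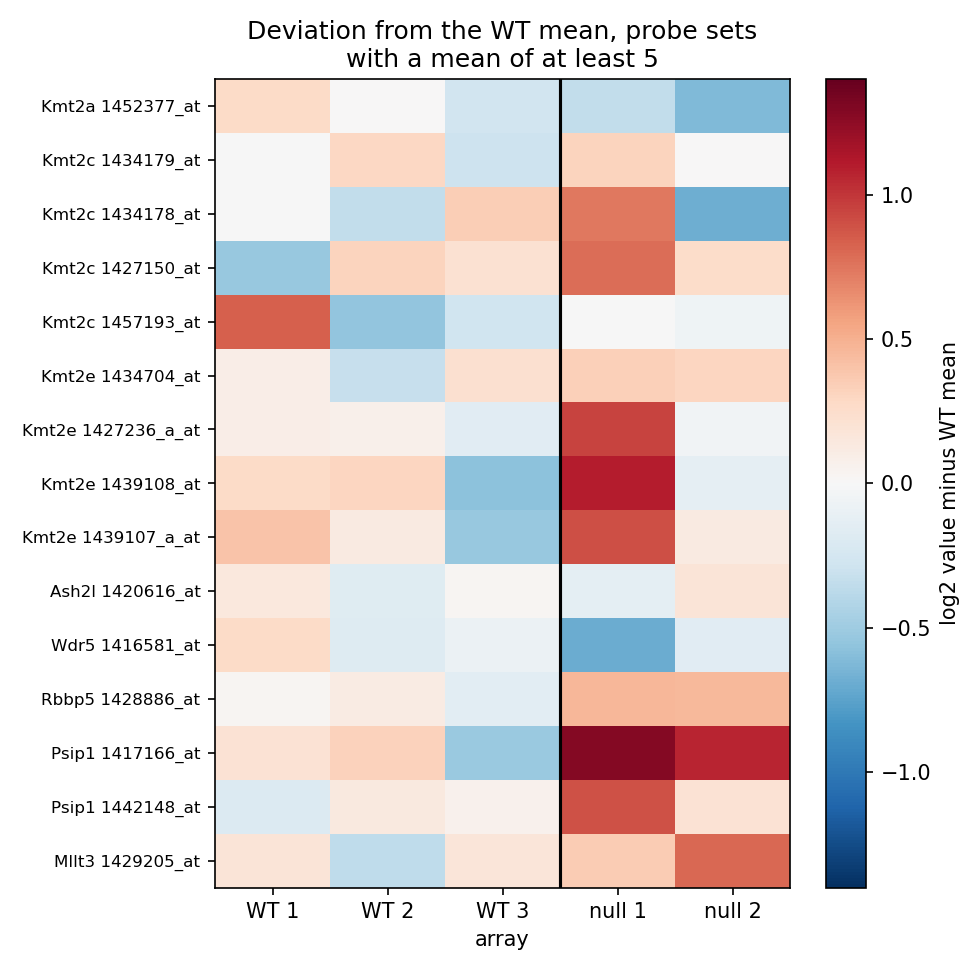
Deviation of each array (horizontal axis) from the WT mean on the log2 scale (color) for the 15 bright probe sets (vertical axis), with a black line between genotypes. The first null array is the highest of the 5 on most Kmt2c and Kmt2e probe sets. Both null arrays lie above every WT array on Psip1 1417166_at, which was called. They also do so on Psip1 1442148_at, Rbbp5, Mllt3 and Kmt2e 1434704_at, which were not called.

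Over the 28 probe sets, 22 differences were positive (78.6%), where 42.2% of all probe sets and 50.9% of all bright ones had a positive difference. The median member difference was 0.13, beside -0.0025 over all probe sets, and 0.45 over the 15 bright members, beside 0.0065 over all bright probe sets. All probe sets were on the positive side for 5 genes, Kmt2e, Ash2l, Rbbp5, Psip1 and Mllt3, though by as little as 0.0001 for a dim one of Kmt2e. Both null arrays lay outside the WT range on the same side for 9 of 28 probe sets (32.1%), 8 above and 1 below, where 14.2% of all probe sets did so (6.75% above and 7.5% below), and for 6 of the 15 bright ones (40.0%), where 32.6% of all bright probe sets did so. Probe sets of a gene share its transcript, and these counts are not independent. The 2 null arrays contributed unequally: the first exceeded every WT array on 11 of the 15 bright probe sets and the second on 6, and their median deviations from the WT mean were 0.47 and 0.12, with -0.15 to 0.14 in the WT arrays.

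Kmt2a carries a CXXC domain that binds CG dinucleotides when they are not methylated, and promoters rich in CG are typical sites of Mll complexes. RefSeq promoter windows (build GRCm38.p6, 250 bases before to 50 after a start) were at hand for 7 of the 10 genes, in 10 windows. Psip1, the called gene, had no window, and neither had Kmt2e and Ash2l, so the counts below do not cover them. The windows of Mllt3, Rbbp5 and Kmt2a are shown 5′ to 3′, because on the bright probe set of each gene both null arrays lay to one side of the WT arrays, above for Mllt3 and Rbbp5 and below for Kmt2a, whose dim probe set overlapped. Capitals mark each CG.

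Mllt3, chr4:88033358-88033657, minus strand: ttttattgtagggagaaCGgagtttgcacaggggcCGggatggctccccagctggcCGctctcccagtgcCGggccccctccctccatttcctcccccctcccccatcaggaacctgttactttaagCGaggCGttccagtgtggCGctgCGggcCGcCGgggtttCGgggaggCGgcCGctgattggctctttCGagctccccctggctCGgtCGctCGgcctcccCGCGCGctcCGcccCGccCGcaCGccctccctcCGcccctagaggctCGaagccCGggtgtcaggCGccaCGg

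Rbbp5, chr1:132477117-132477416, plus strand: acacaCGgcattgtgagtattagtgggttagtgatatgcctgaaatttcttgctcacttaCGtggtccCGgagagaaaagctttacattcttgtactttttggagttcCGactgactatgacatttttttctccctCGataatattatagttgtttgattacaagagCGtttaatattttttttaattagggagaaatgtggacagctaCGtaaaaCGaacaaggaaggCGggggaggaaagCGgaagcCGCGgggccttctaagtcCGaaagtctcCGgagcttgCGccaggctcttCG

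Kmt2a, chr9:44881240-44881539, minus strand: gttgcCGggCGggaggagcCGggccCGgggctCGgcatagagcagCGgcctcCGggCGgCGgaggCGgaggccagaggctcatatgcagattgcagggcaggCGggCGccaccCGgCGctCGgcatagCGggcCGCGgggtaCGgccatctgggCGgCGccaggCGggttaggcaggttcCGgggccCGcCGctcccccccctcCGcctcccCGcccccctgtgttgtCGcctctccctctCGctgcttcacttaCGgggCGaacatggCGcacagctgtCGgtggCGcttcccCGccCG

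The Mllt3 window held 29 CG, that of Rbbp5 16 and that of Kmt2a 36, against a median of 7 over all 32851 windows of the same length. Of all windows, 87.1% had fewer CG than that of Mllt3, 67.0% fewer than that of Rbbp5 and 93.8% fewer than that of Kmt2a. The windows of Kmt2c held 56, of Dot1l 49 and of Wdr5 22. A second Mllt3 window, at a downstream start, had 4. Atxn1L acts with the repressor Capicua, whose known target octamers include TGAATGAA and TGAATGGA. Searched on both strands, neither was found in any of the 10 member windows, and they occurred in 1.3% and 1.21% of all windows. The variants TCAATGAA and TCAATGGA were in no member window either, and in 0.749% and 0.67% of all windows. The Sp1 box GGGCGG was in 8 of the 10 and in 35.7% of all windows. Among the 8 were those of Kmt2a and the upstream start of Mllt3 and not that of Rbbp5. CCAAT was in 5 of the 10, of Mllt3 and Men1, and in 37.4% of all. The Men1 windows overlap each other, so their hits are not independent and the member counts cannot be set directly against the shares of all windows. The motifs named here were picked to be shown after 15 motifs had been searched.

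The question that a search around these genes addresses is whether their partners and targets differed in the same arrays. Other genes of the Set1 and Mll complexes gave 34 probe sets for 15 of 16 listed genes, of which 0 were called higher and 2 lower, both of Pagr1a, a subunit that joins the Kmt2c and Kmt2d complexes to Paxip1. They fell by 0.61 (6.81 to 6.20) and by 0.65 (7.88 to 7.23), and with 1 array left out in turn they were called in 2 and 1 of 5 cases, with differences of -0.81 to -0.41 and -0.95 to -0.34. The median difference of that list was -0.01. Kmt2d, the closest relative of Kmt2c, read 11.16 in WT and 10.89 in null HSCs on its bright probe set, without a call.

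Partners of Dot1l and Mllt3 in transcript elongation gave 52 probe sets for 19 of 20 genes. Of these, 2 were called higher and 2 lower, and the median difference was -0.0035. With the replicate number as a block, only 1 probe set of this list was called. Ell2, an elongation factor of the super elongation complex, rose by 0.85, from 10.28, 10.28 and 9.98 in WT to 10.90 and 11.16 in null HSCs (standard error 0.15, limma adjusted p = 0.478), and was called with each array left out. Aff1 (AF4), a scaffold of that complex, was called on a dim probe set that rose by 0.82 (2.98 to 3.80), also with each array left out. On its bright probe set the WT arrays gave 9.71, 9.82 and 9.71 and the null arrays 10.28 and 10.19, a difference of 0.49 (95% interval 0.34 to 0.64) with no overlap, under the fold. Wdr61, a subunit of the PAF and Ski complexes, fell by 0.68 and 0.83 on 2 of 4 probe sets, while its brightest, at 12.13 and 12.06, differed by -0.07. The remaining bright one, 8.04 in WT and 7.58 in null HSCs, differed by -0.46 (95% interval -0.61 to -0.30) with no overlap, under the fold. Each Wdr61 call ended in 4 of the 5 cases with 1 array left out, with differences of -0.84 to -0.50 and -1.17 to -0.49.

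Among the enzymes that remove H3K4 methylation and Kdm2b, 24 probe sets of 6 genes held 1 call, a dim probe set of Kdm5b that fell by 0.99 (3.93 to 2.95), and its other 3 probe sets differed by -0.42 to 0.21. That call lasted in 2 of the 5 cases with 1 array left out, and its difference stayed between -1.19 and -0.85. Of the Hoxa genes and their Meis and Pbx cofactors, downstream of Kmt2a, 21 probe sets of 11 of 14 listed genes held 1 call. Hoxa7 was called, at 7.77 in WT and 5.91 in null HSCs. Its log2 difference was -1.86, with an interval of -2.88 to -0.84 (limma adjusted p = 0.518). With 1 array left out in turn its difference ran from -2.35 to -1.36, and the call stayed without any 1 of the WT arrays. With the replicate number as a block, its difference was -1.73 and the call ended. The bright Hoxa9 probe set read 13.31 to 13.48 in WT and 13.08 and 13.12 in null HSCs, with no overlap. Its difference of -0.29, with an interval of -0.46 to -0.12, was under the fold. Meis1, another Mll target, had 2 bright probe sets that went opposite ways without a call, by -0.46 and 0.50, both with no overlap of the genotypes. The CDK inhibitor genes that menin regulates, Cdkn1b and Cdkn2c, had no called probe set among 3 and read 10.12 against 9.97 and 6.44 against 6.49.

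**Figure D4:**
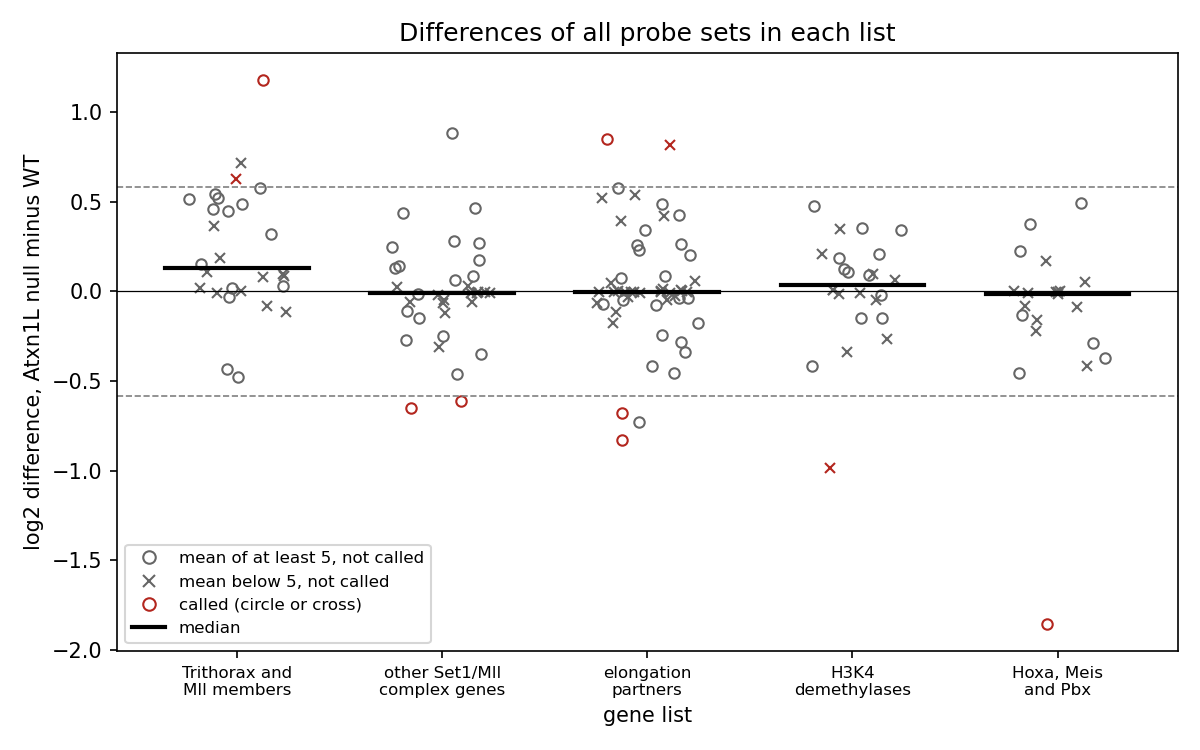
Log2 difference, Atxn1L null minus WT (vertical axis), of every probe set in the trithorax and Mll genes and in 4 related lists (horizontal axis), with circles for a mean of at least 5, crosses for lower means, red for called probe sets and a bar at each median. The member median lies at 0.13 and those of the other lists between -0.01 and 0.04.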

How the data were processed

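The arrays carried amplified RNA (T7-based in vitro transcription) of pooled HSCs. The authors processed them with GCRMA (version: not given in the sources used here), then deposited log2 values, 1 per probe set; that their base is 2 was inferred from their size, as no source states it. With 5 arrays, precision is set by the array number.

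Without the 64 Affymetrix controls, 45037 probe sets were fitted, 1 mean per genotype, by lmFit and eBayes (limma 3.58.1, R 4.3.3), and p-values were adjusted by Benjamini-Hochberg over all of them. The call criterion is that of the study's text. Genes came from the platform annotation. The code was tested on simulated data. No exact test of 3 arrays against 2 can reach a p below 0.1.

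The members and lists were chosen with earlier results of these data known. By rule, the text names every member, called genes of other lists (the brightest where no gene was called, 1 at most for a marker list), Hoxa7, Hoxa9, Atxn1l and Gapdh. The bright Aff1 probe set, Meis1, Kmt2d and Slamf1 were named after their values were seen. The definition of bright was also changed then, from a mean of at least 5 in either genotype to one over all arrays. By the earlier rule Psip1 1460403_at, which was called, and Men1 1443826_x_at would have been bright, with null means of 5.087 and 5.094. The share of bright members called depends on this choice. A probe set can still be bright with 1 genotype mean below 5, as Atxn1l 1455507_s_at was, at 6.19 in WT and 3.44 in null arrays. Array weights were estimated gene by gene, a method set after the default had not converged. Of 127 list entries, 11 matched no probe set by symbol and were not analysed here. Alternatives covered the variance model, scaling, filters, joining of probe sets, criteria, a replicate block and each array left out.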

Additional observations from a re-analysis of the deposited data

How the results depend on the processing

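The member calls rest on few arrays. Of the member probe sets, 2 were called higher with a variance trend, renewed quantile normalization or median centring, as in the text, and 1 with only probe sets of a mean of at least 5, with the brightest probe set of each gene, and with probe sets averaged. The adjusted criterion left 0. With 1 array left out in turn 1 to 2 were called higher and 0 to 1 lower, the lower one being Kmt2a without the third WT array. The median member difference was 0.19 with array weights and 0.45 over probe sets with a mean of at least 5, and ran from 0.13 to 0.25 with 1 array left out, the highest without the second null array. Over all probe sets, the 510 higher and 564 lower calls became 286 and 260 genes with the brightest probe set of each, 115 and 142 with averaging, 1442 and 1075 with no fold, and 0 and 1 after adjustment. They ran from 350 to 1128 higher and 359 to 820 lower with 1 array left out, with 1128 without the second null array and 359 without the first WT array. Where a null array is left out, the lone null array is assumed to vary like the WT arrays.

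No source used here states whether pools that share a replicate number were handled together, and the main fit treats them as unpaired. With the replicate number as a block, 290 probe sets were higher and 472 lower, 1 member was higher (Psip1 1417166_at) and 1 lower (Kmt2a 1452377_at, at -0.61). Deviations of same-numbered arrays from their genotype means correlated at -0.033 for the first and -0.257 for the second number, taken over probe sets, which depend on each other. With 2 null arrays their deviations mirror each other, so these correlations cannot decide whether the pools were paired. The pools give 3 residual degrees of freedom.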
